A study of Mus musculus with 10 samples.

Results

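The 8 genes of the myosin light chain family, named by symbol (Myl1, Myl2, Myl3, Myl4, Myl6, Myl6b, Myl9 and Mylpf), were followed in C2C12 cells in which *Fndc1* had been knocked down. All 8 were found once each among the 55359 genes of the deposited table, and 7 of them passed the level filter used for testing (a mean of at least 0.5 FPKM, read pairs scaled by transcript length and library size). C2C12 is a mouse myoblast line that forms multinucleated myotubes when serum is withdrawn. The cells received 100 nM of control siRNA (si-Control, 5 libraries) or of siRNA against *Fndc1* (si-*Fndc1*, 5 libraries), were otherwise of the same line and treatment, and were collected at day 4 of differentiation in 2% horse serum. The study's methods list a single siRNA sequence for *Fndc1*, and nothing in the labels says that the libraries of a group came from separate cultures, so the p-values measure only the spread between these libraries. The description of the series gives 48 h after transfection in place of day 4.

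Muscle myosin is built from a pair of heavy chains, and the neck of each heavy chain binds an essential and a regulatory light chain. The light chains stiffen the neck and tune the force and speed of the motor, and phosphorylation of the regulatory light chain by myosin light chain kinase sets its activity. Different genes supply the fast skeletal, slow or cardiac, embryonic, and nonmuscle or smooth muscle forms, and the makeup changes as myoblasts become fibres. Of the essential light chains followed here, Myl1 encodes the fast skeletal form, Myl3 the slow skeletal and ventricular form, Myl4 the embryonic and atrial form, Myl6 the nonmuscle and smooth muscle form, and Myl6b a form of nonmuscle and slow muscle cells. Of the regulatory light chains, Mylpf encodes the fast skeletal form, Myl2 the slow skeletal and ventricular form, and Myl9 a smooth muscle and nonmuscle form.

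The genes lie apart in the genome except for Myl6b and Myl6, which follow each other on the same strand. As the table lists them, Myl1 lies at chr1:66963454-66984563 (minus strand), Myl2 at chr5:122239014-122251535 (plus), Myl3 at chr9:110570929-110598866 (plus) and Myl4 at chr11:104441489-104486579 (plus). Myl6 lies at chr10:128326729-128330014 and Myl6b at chr10:128330026-128334554 (both minus), with 11 bases between them. Myl9 lies at chr2:156617340-156623578 (plus) and Mylpf at chr7:126808062-126813460 (plus). The table names no genome build, and the submitters' processing notes name GRCm39. Counts are per whole gene, so the transcripts of Myl1 that start at different promoters were not told apart. Myl3 overlaps Pth1r and Myl2 overlaps Ccdc63 on the opposite strand, and whether reads were counted by strand is not stated.

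A few of the promoter windows are printed here, because Mylpf and Myl6b rose in si-*Fndc1* with no overlap between the groups, whereas Myl2, the slow counterpart of Mylpf, was low in both groups. Each is the 250 bases before a RefSeq transcription start (GRCm38.p6), 5′ to 3′, with E-boxes (CANNTG, the letters bound by myogenic bHLH factors such as MYOD and myogenin) in capitals. For Myl2 the first of its RefSeq starts was used. The windows are chr7:127211358-127211607 (plus strand) for Mylpf, chr10:128498686-128498935 (minus strand) for Myl6b and chr5:122092474-122092723 (plus strand) for Myl2.
Mylpf: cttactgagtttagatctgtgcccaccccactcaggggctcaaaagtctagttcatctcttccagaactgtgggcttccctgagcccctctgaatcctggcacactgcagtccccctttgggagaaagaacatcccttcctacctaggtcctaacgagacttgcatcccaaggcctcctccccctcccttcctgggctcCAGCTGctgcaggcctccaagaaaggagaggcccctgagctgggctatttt
Myl6b: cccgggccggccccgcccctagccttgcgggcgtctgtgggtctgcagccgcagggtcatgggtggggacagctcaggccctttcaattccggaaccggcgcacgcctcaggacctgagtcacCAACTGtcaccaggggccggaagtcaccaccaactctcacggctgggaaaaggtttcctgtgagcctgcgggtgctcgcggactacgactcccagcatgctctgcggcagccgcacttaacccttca
Myl2: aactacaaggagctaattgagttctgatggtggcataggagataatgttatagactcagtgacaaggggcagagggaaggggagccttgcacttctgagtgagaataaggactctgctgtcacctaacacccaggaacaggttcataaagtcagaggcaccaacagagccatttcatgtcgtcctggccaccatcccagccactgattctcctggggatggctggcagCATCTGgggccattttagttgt
In the printed windows the E-box lay 51 bases before the start of Mylpf, 127 before that of Myl6b and 22 before the first start of Myl2. The windows of Myl4, Myl9 and the second start of Myl6 held none. Searched on both strands, an E-box was present in 7 of the 10 RefSeq windows of the 8 genes and in 66.2% of 32851 RefSeq promoter windows of the same length. The M-CAT motif (CATTCC) was in 2 of the 10, against 12.6% of all windows. The MEF2 box was in 0 of the 10, against 2.9% of all. The CArG box, the letters bound by serum response factor, was in 3 of the 10 (Myl9, Myl3 and the second start of Myl6), against 1.5% of all. These are matches of letters, and no binding was measured.

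Between 66771605 and 75995168 reads were counted per si-Control library, and between 56332844 and 72839369 per si-*Fndc1* library. The targeted transcript was lower in every si-*Fndc1* library. *Fndc1* stood at 27.8 ± 2.04 FPKM (SD, n = 5) in si-Control and 20.9 ± 1.70 in si-*Fndc1*, a log2 fold change of -0.40 ± 0.07 (SE, adjusted p = 0.000934 by the quasi-likelihood test of edgeR, adjusted by Benjamini-Hochberg over all tested genes). With the trend of transcript length and GC content removed, as described below, the log2 fold change of *Fndc1* was -0.21 (adjusted p = 0.0143 by edgeR). The cells expressed the transcripts of myotubes, with the 7 myotube markers summing to between 3440 and 4120 FPKM in all 10 libraries. The smooth muscle list summed to between 1170 and 1240 FPKM in a si-Control library, most of it Acta2 (1020 ± 24.3 FPKM), which myoblasts also express, with Tagln at 141 ± 9.09 and the smooth muscle heavy chain Myh11 at 0.0128 ± 0.0153. The cardiac list summed to between 3.25 and 4.20 FPKM, with Myh6 at 1.80 ± 0.493, Nppb at 1.59 ± 0.307 and no read of the atrial light chain Myl7 in any library. Transcripts of hepatocytes, which C2C12 cells should lack, moved with the groups. All 7 tested genes of an 8-gene hepatocyte list (Alb among them) were called higher in si-*Fndc1*, and the list summed to between 0.0443 and 5.05 FPKM in a si-Control library, against 40.8 to 153 in a si-*Fndc1* library. Their part in the results on light chains was not tested.

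At day 4 the light chain transcripts were dominated by the fast regulatory form. In si-Control, Mylpf stood at 1971 ± 94.3 FPKM (SD, n = 5) and was rank 20 of all genes by mean FPKM over the 10 libraries. Myl1 followed at 293 ± 31.2 FPKM, Myl4 at 161 ± 4.32, Myl6 at 101 ± 8.75, Myl9 at 69.5 ± 4.21 and Myl6b at 42.4 ± 2.84. The slow skeletal and ventricular forms were almost absent, with Myl2 at 1.04 ± 0.20 FPKM and Myl3 at 0.0953 ± 0.0573. In si-Control no neighbours in this order overlapped between libraries. The order of the means was the same in si-*Fndc1*, where Myl9 (52.7 to 81.7 FPKM) and Myl6b (51.9 to 61.6 FPKM) overlapped and so did not differ beyond their spread. Together the 8 genes took 0.413% to 0.470% of the counted reads of a si-Control library and 0.521% to 0.571% of a si-*Fndc1* library.

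The middle of this order depended on the transcript length by which the counts are divided. The deposited FPKM values imply lengths of 5156 bases for Myl4, 3544 for Myl6 and 2306 for Myl1, whereas the longest coding transcripts of the reference annotation (GENCODE M1) measure 943, 665 and 1082 bases. For Mylpf (1181 against 766) and Myl9 (1292 against 1128) the lengths were closer. With the annotated lengths, the level in si-Control, as CPM (counts scaled to library size) per kilobase, was 3030 ± 144 for Mylpf, 878 ± 23.2 for Myl4, 625 ± 66.5 for Myl1 and 540 ± 46.6 for Myl6. Myl4 then stood above Myl1 in every library, and the ranges of Myl6 and Myl1 overlapped in both groups. Within a library, the ratio of Myl6 to Myl1 was below 1 in all si-Control libraries (0.756 to 0.971) and above 1 in all si-*Fndc1* libraries (1.07 to 1.13). Myl6b (84.7 ± 5.72) and Myl9 (79.6 ± 4.76) overlapped in si-Control. Which length fits these cells was not tested. Mylpf at the top, and Myl2 and Myl3 at the bottom, held under both lengths.

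**Figure D1:**
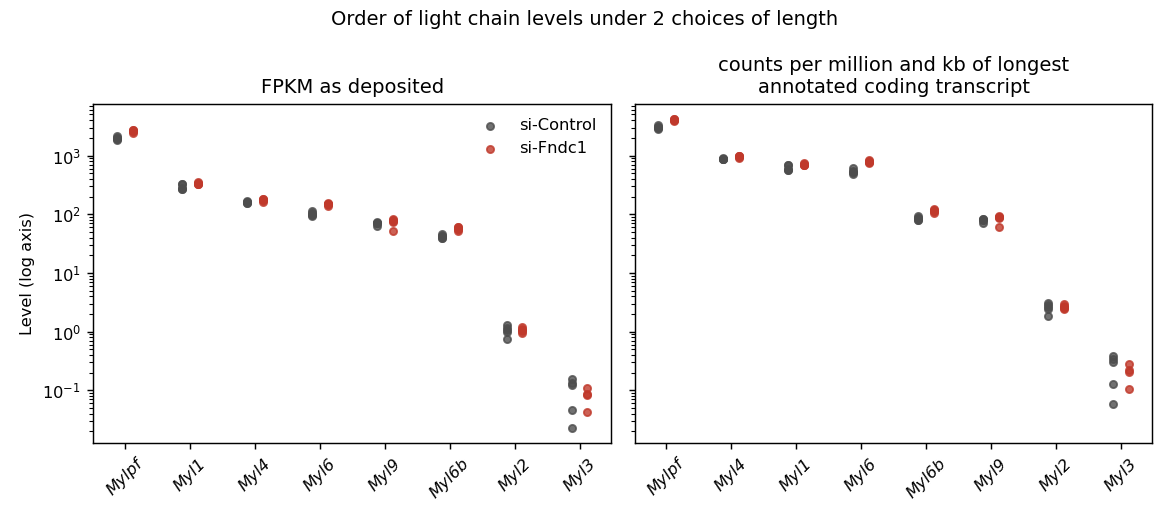
Level of each light chain gene in each library on a log axis, as deposited FPKM (left) and as CPM per kilobase of the longest annotated coding transcript (right), with si-Control in grey and si-Fndc1 in red. A single si-Fndc1 library with no Myl3 read is not drawn. Mylpf is highest in both panels, and Myl4 moves above Myl1 on the right.

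Of the 7 tested light chain genes, 5 were called higher in si-*Fndc1* (Mylpf, Myl6, Myl6b, Myl4 and Myl1), where 17.3% of the 13548 tested genes were called higher. None was called lower, where 17.2% of all tested genes were, and the number was 0 also at an unadjusted p under 0.05 and with DESeq2. The median log2 fold change of the 7 was 0.21, and that of all tested genes 0.00. On quantile-normalized values 2 of the 7 were called higher, where 2121 of the 13548 genes were. With a replicate block 3 of the 7 were, where 1796 of the 13548 were. With the trend of annotated length and GC content removed 4 were called higher, with a median of 0.07, where 10.3% of all genes were. Of the 7, 3 (Mylpf, Myl6 and Myl6b) did not overlap between the groups, as was so for 12.7% of all tested genes in this direction on normalized CPM. In a bulk sample, more cells expressing a gene and more transcript per cell cannot be told apart.

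**Figure D2:**
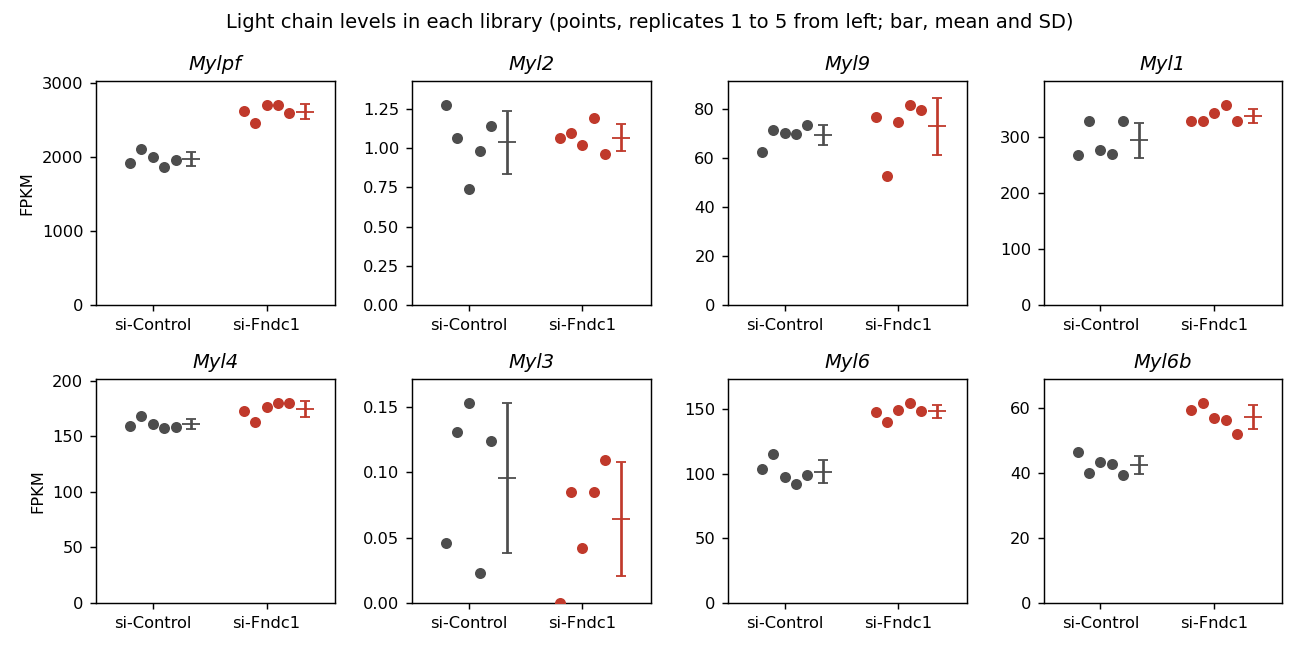
FPKM of each light chain gene in each library, with replicates 1 to 5 from left to right in each group, and the mean and SD (n = 5) at the right of the points. Mylpf, Myl6 and Myl6b are higher in all 5 si-Fndc1 libraries than in any si-Control library, Myl1 in si-Control falls into libraries near 270 and near 327 FPKM, and 1 si-Fndc1 library is low in Myl9.

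Among the regulatory light chains, the fast skeletal form Mylpf rose 1.34-fold. Mylpf stood at 1918, 2114, 1999, 1864 and 1958 FPKM in si-Control replicates 1 to 5 and at 2630, 2460, 2706, 2703 and 2594 in si-*Fndc1* replicates 1 to 5. The lowest si-*Fndc1* library exceeded the highest si-Control library. On the log2 scale the change was 0.42 ± 0.04 (SE; 95% interval 0.33 to 0.51; adjusted p = 4.96e-05 by edgeR). A two-sided exact permutation test of the FPKM gave p = 0.00794, the smallest that 5 against 5 libraries allow. On quantile-normalized log2(FPKM + 1) values the change was 0.12 and did not pass (adjusted p = 0.0675 by limma).

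Myl9, the smooth muscle and nonmuscle form, did not pass the test. Myl9 stood at 62.5, 71.6, 70.2, 69.7 and 73.7 FPKM in si-Control and at 76.7, 52.7, 74.7, 81.7 and 79.6 in si-*Fndc1*. Replicate 2 of si-*Fndc1* was below all si-Control libraries, and the other 4 were above all of them. The log2 fold change was 0.08 ± 0.10 (95% interval -0.15 to 0.31; adjusted p = 0.596 by edgeR). Without si-*Fndc1* replicate 2 it was 0.17 (adjusted p = 0.0205), so this single library decided the call.

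Myl2, the slow form, was counted with 115 to 211 reads per library. Its 5 si-Control libraries spanned 0.737 to 1.27 FPKM and its 5 si-*Fndc1* libraries 0.964 to 1.19, and the groups overlapped. The log2 fold change was 0.05 ± 0.15 (95% interval -0.28 to 0.37; adjusted p = 0.838 by edgeR), and the interval spans values on both sides of 0. With the trend of length and GC content removed it was -0.15 (adjusted p = 0.549).

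Among the essential light chains, the nonmuscle form Myl6 had the largest fold change of the 7 tested genes as tested, and Myl6b had the largest with GC content and annotated length removed (0.50 against 0.39). Myl6 stood at 103.5, 115.3, 97.4, 92.1 and 98.9 FPKM in si-Control and at 147.7, 140.2, 148.8, 154.7 and 148.7 in si-*Fndc1*. The highest si-Control library was well below the lowest si-*Fndc1* library. The log2 fold change was 0.55 ± 0.06 (95% interval 0.43 to 0.68; adjusted p = 6.07e-05 by edgeR), or 1.47-fold.

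Its neighbour Myl6b rose as well. Myl6b stood at 46.4, 39.9, 43.3, 42.8 and 39.4 FPKM in si-Control and at 59.5, 61.6, 56.8, 56.3 and 51.9 in si-*Fndc1*, with no overlap. This gave a log2 fold change of 0.44 ± 0.06 (95% interval 0.32 to 0.57; adjusted p = 0.000229 by edgeR). The ratio of Myl6b to Myl6 FPKM within a library was 0.42 ± 0.05 (SD, n = 5) in si-Control and 0.39 ± 0.04 in si-*Fndc1*, and the groups overlapped.

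The sarcomeric essential forms changed less. Myl4, the embryonic form, stood at 159.3, 168.2, 161.1, 157.6 and 158.0 FPKM in si-Control and at 172.6, 162.6, 176.0, 180.1 and 179.7 in si-*Fndc1*. Replicate 2 of si-*Fndc1* lay within the range of si-Control, and the other 4 were above it. The log2 fold change was 0.12 ± 0.03 (95% interval 0.05 to 0.20; adjusted p = 0.019 by edgeR), or 1.09-fold. On quantile-normalized log2(FPKM + 1) values it was 0.01 (adjusted p = 0.899 by limma).

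Myl1, the fast form, was the most variable of the abundant members in si-Control. Myl1 stood at 266.5, 327.6, 275.9, 269.8 and 327.2 FPKM in si-Control and at 328.1, 327.6, 342.5, 356.2 and 328.4 in si-*Fndc1*. Replicates 2 and 5 of si-Control reached the lower si-*Fndc1* libraries, and replicates 1, 3 and 4 were lower. The log2 fold change was 0.21 ± 0.07 (95% interval 0.06 to 0.35; adjusted p = 0.0361 by edgeR), or 1.15-fold. The call was lost when any of 6 libraries was left out: si-Control replicates 1 (0.17, adjusted p = 0.0818), 3 (0.18, 0.0829) and 4 (0.18, 0.0827), and si-*Fndc1* replicates 1 (0.22, 0.0503), 3 (0.20, 0.0699) and 4 (0.19, 0.0800).

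A processed pseudogene of Myl1, Mylf-ps (chr12:101188256-101188676 in the table, minus strand), was counted with 6162 to 7917 reads per library. This was 11.1% to 13.5% of the reads of both genes together, and reads of near-identical sequence can be assigned to either. Mylf-ps stood at 205.3, 202.0, 194.9, 190.8 and 210.8 FPKM in si-Control and at 232.7, 217.9, 236.4, 235.4 and 234.3 in si-*Fndc1*. The split of the si-Control libraries seen in Myl1 was absent here, and the groups did not overlap. Its log2 fold change was 0.21 ± 0.04 (adjusted p = 0.00143 by edgeR). With the reads of both genes added, Myl1 had a log2 fold change of 0.21 (adjusted p = 0.025).

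Myl3, the slow and ventricular form, was below the level filter. It had 4 to 26 reads in a si-Control library and 0 to 15 in a si-*Fndc1* library, on which no test was made.

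The fold changes of these genes could depend on transcript length and base composition, because both moved with the groups. Across the 11185 tested genes with a reference transcript, Spearman's rho of the log2 fold change was -0.523 with GC content and -0.272 with length, given as a description since genes are not replicates. The 8 light chain transcripts measured 665 to 1128 bases, against a median of 2965. Their GC content was 48.9% to 59.8%, against a median of 50.5%. Only Myl1 (48.9%) and Myl2 (50.3%) lay below that median, and Myl6b was the highest (59.8%). Short length thus went with higher fold changes in the trend, and high GC content with lower ones. Of 1165 tested genes with a longest coding transcript under 1200 bases, a limit chosen after the members' lengths were known, 31.9% were called higher and their median log2 fold change was 0.14. With the trend of length and GC content removed in each library, 4 of the 7 light chain genes were called higher, where 10.3% of all genes were. Among the 1165 short genes, 212 were called higher with the trend removed. Myl6b (0.50, adjusted p = 0.000891), Myl6 (0.39, adjusted p = 7.64e-05), Mylpf (0.26, adjusted p = 5.89e-05) and Myl4 (0.06, adjusted p = 0.0445) remained called in this edgeR fit. Myl1 did not (0.01, adjusted p = 0.923). The sizes depended on the length used. With the length implied by the FPKM in the offset, an alternative added after seeing the data, Myl4 had 0.26 (adjusted p = 0.000745), above its uncorrected value, and Myl6 had 0.59. With the annotated length the median of the 7 fell to 0.07. With the implied length it did not fall, and the middle of the 7 values was that of Mylpf (0.26).

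**Figure D3:**
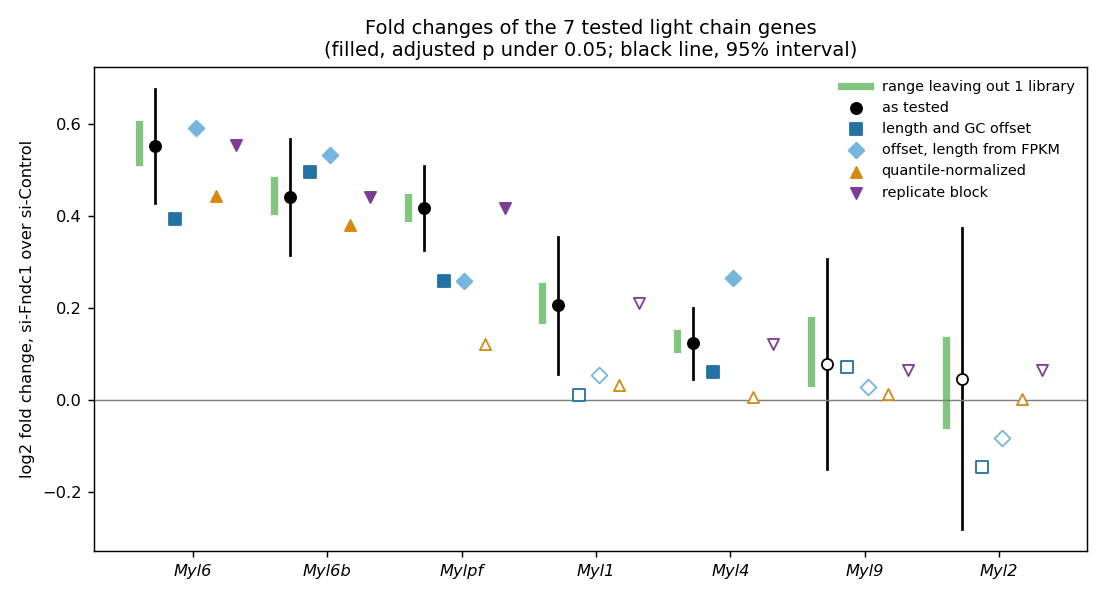
Log2 fold change of each tested light chain gene, as tested with its 95% interval (black), with the effect of length and GC content removed (blue, for both choices of length), on quantile-normalized FPKM (orange) and with a replicate block (purple), filled where the adjusted p was under 0.05. The green bars span the values with 1 library left out. Myl6 and Myl6b are filled in every setting drawn, and Myl1 only as tested.

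The summed sarcomeric share of the essential light chains did not overlap between the groups. The sarcomeric genes (Myl1, Myl4 and Myl3) made up 75.9% ± 1.37 (SD, n = 5) of the summed essential light chain FPKM in si-Control, with a range of 74.0% to 77.8%. In si-*Fndc1* they made up 71.3% ± 0.502, with a range of 70.7% to 71.8%. Myl6 took a share of 17.0% ± 0.885 in si-Control and of 20.7% ± 0.280 in si-*Fndc1*, without overlap. The share of Myl4 was 26.9% ± 1.27 and 24.3% ± 0.668, and the groups overlapped at their edge. The shares of Myl1, Myl3 and Myl6b overlapped as well. With the annotated lengths the share of Myl4 did not overlap (39.8% to 42.8% against 36.2% to 38.1%). With the annotated lengths the sarcomeric share spanned 69.1% to 72.0% in si-Control, against 64.5% to 65.2% in si-*Fndc1*, again without overlap. These shares are descriptions and are not corrected for the trends with length and GC content.

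On the regulatory side the summed sarcomeric share overlapped between the groups, and the shares of 2 nonmuscle forms did not. Mylpf and Myl2 together made up 90.3% ± 0.626 of the summed FPKM of Mylpf, Myl2, Myl9, Myl12a and Myl12b in si-Control and 91.1% ± 0.575 in si-*Fndc1*, and the groups overlapped. Myl9 took 2.96% to 3.40% of this sum in si-Control, against 1.97% to 2.78% in si-*Fndc1*, and Myl12b took 1.07% to 1.25%, against 0.838% to 0.973%. The levels of Myl9 and Myl12b did not themselves pass the test (adjusted p = 0.596 and 0.442 by edgeR). Myl12a, the most abundant nonmuscle form of the sum, took 4.62% to 6.25% in si-Control, against 5.16% to 5.79% in si-*Fndc1*, and overlapped. Within a library, the ratio of Myl9 to Mylpf spanned 0.0326 to 0.0376 in si-Control, against 0.0214 to 0.0307 in si-*Fndc1*. For Myl1 to Mylpf it spanned 0.138 to 0.167, against 0.125 to 0.133. Neither ratio overlapped between the groups. Mylpf makes up most of the sum and divides both ratios, so its rise lowers the shares and ratios of genes that rose less. They are therefore not results apart from the rise of Mylpf. These values are descriptions and are not corrected for the trends with length and GC content. The ratio of Myl4 to Myl1 did overlap (0.483 to 0.598 against 0.496 to 0.547), with the low si-Control values in replicates 2 and 5.

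**Figure D4:**
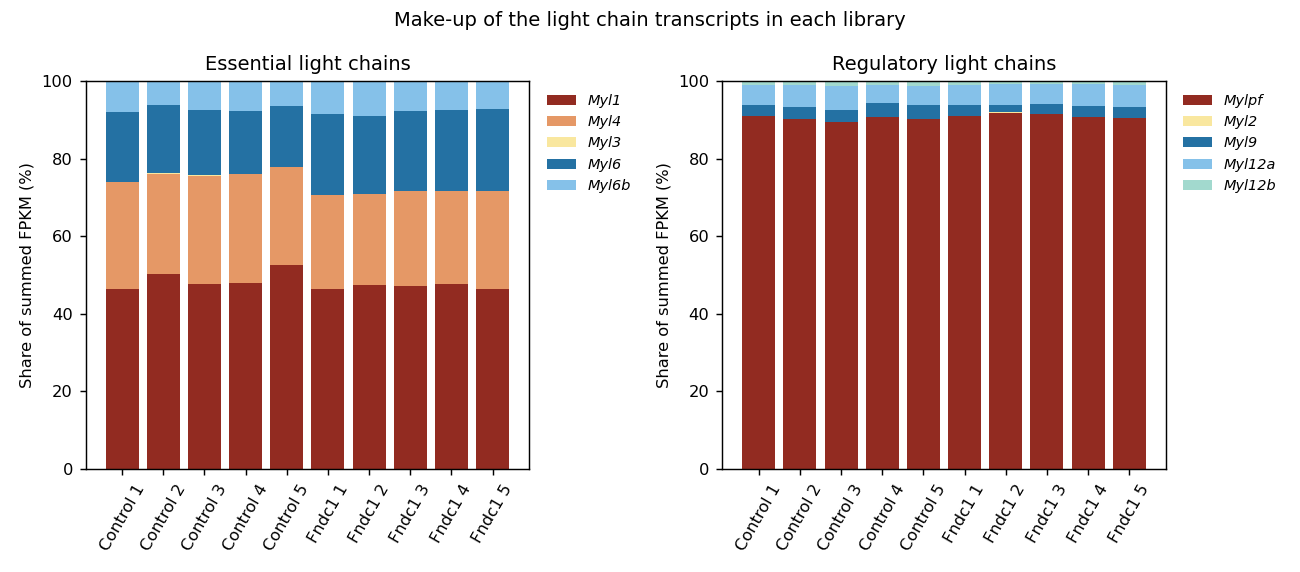
Share (%) of each gene in the summed FPKM of the essential (left) and regulatory (right) light chains, 1 bar per library, with si-Control replicates 1 to 5 and then si-Fndc1 replicates 1 to 5. Myl3 and Myl2 are too low to be seen. The blue part at the top left (Myl6 and Myl6b) is larger in the si-Fndc1 libraries, and Mylpf takes about 90% of every bar on the right.

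The heavy chains that carry these light chains were lower or did not pass the test. All 9 tested sarcomeric heavy chain genes had a log2 fold change below 0 (median -0.12), and 1 was called lower, where 17.2% of all tested genes were. With length and GC content removed, none of the 9 passed the test and their median was 0.09. The one called was Myh7, the slow and cardiac heavy chain, at 6.30 ± 0.845 FPKM in si-Control and 4.69 ± 0.599 in si-*Fndc1* (log2 fold change -0.42 ± 0.11, adjusted p = 0.0117 by edgeR). With length and GC content removed it was -0.14 (adjusted p = 0.306). The embryonic heavy chain Myh3, the most abundant, stood at 414 ± 49.1 and 366 ± 36.2 FPKM (log2 fold change -0.17 ± 0.09, adjusted p = 0.166 by edgeR). Both tested nonmuscle heavy chains were called lower. Myh9, whose myosin carries light chains of the Myl6 and Myl9 kind, fell from 169 ± 3.60 to 124 ± 5.40 FPKM (log2 fold change -0.44 ± 0.03, adjusted p = 1.72e-05 by edgeR), and with length and GC content removed the value was -0.11 (adjusted p = 0.00727). Myh10 had a log2 fold change of -0.22 (adjusted p = 0.00376), and -0.01 (adjusted p = 0.889) with the trend removed.

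Of the 4 other light chain genes examined, Myl12a and Myl12b were tested, and Myl7 and Myl10 were at or near 0. Myl12a, a nonmuscle regulatory form, rose from 116 ± 18.3 to 156 ± 11.7 FPKM (log2 fold change 0.43 ± 0.10, adjusted p = 0.00668 by edgeR). Its paralog Myl12b stood at 24.8 ± 1.98 and 25.9 ± 1.88 FPKM (log2 fold change 0.07 ± 0.06, adjusted p = 0.442), and reads of these near-identical genes can be assigned to either.

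The kinases, calmodulins and phosphatase subunits that act on regulatory light chains gave 18 tested genes. Of these, 3 were called higher and 4 lower, where 17.3% and 17.2% of all tested genes were. The smallest p-values were those of Cit, citron kinase, which fell from 1.89 ± 0.119 to 1.36 ± 0.0437 FPKM (log2 fold change -0.47 ± 0.05, adjusted p = 9.97e-05 by edgeR), and Ppp1cb, the catalytic subunit of myosin phosphatase, which rose from 17.0 ± 0.910 to 20.1 ± 0.475 FPKM (0.25 ± 0.04, adjusted p = 0.000746). Ppp1r12c, a targeting subunit of the phosphatase, fell (-0.17 ± 0.04, adjusted p = 0.00655), and Ppp1r14c, a phosphatase inhibitor, rose (0.31 ± 0.08, adjusted p = 0.0145). Outside the naming rule, the dedicated kinases Mylk (-0.28, adjusted p = 0.0205) and Mylk2, the skeletal muscle form (-0.19, adjusted p = 0.0424), were also called lower. With length and GC content removed, Cit (-0.16, adjusted p = 0.0871), Ppp1cb (0.11, adjusted p = 0.0684) and Ppp1r14c (0.24, adjusted p = 0.0629) did not pass, and Ppp1r12c was called in the opposite direction (0.12, adjusted p = 0.0359). In that fit both dedicated kinases lay at -0.02.

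On the thin filament, the median log2 fold change of 12 tested genes was 0.07. Of the 12, 3 were called, all higher, where 17.3% of all tested genes were. They were Tnni2, fast troponin I (227 ± 14.6 to 341 ± 50.0 FPKM, 0.60 ± 0.09, adjusted p = 0.000677 by edgeR), Tpm2, beta-tropomyosin (349 ± 19.9 to 436 ± 32.3 FPKM, 0.33 ± 0.06, adjusted p = 0.00142), and Tnnt1, slow troponin T (111 ± 5.30 to 141 ± 16.7 FPKM, 0.36 ± 0.07, adjusted p = 0.00308). All 3 remained called with length and GC content removed. Of 7 tested genes of myosin assembly and binding, only the chaperone Unc45a was called, and it was lower, where 17.2% of all tested genes were. Its log2 fold change was -0.26 ± 0.09 (adjusted p = 0.0429 by edgeR). With length and GC content removed, Unc45a lay at -0.03 (adjusted p = 0.875) and Unc45b was called higher (0.10, adjusted p = 0.0452).

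**Figure D5:**
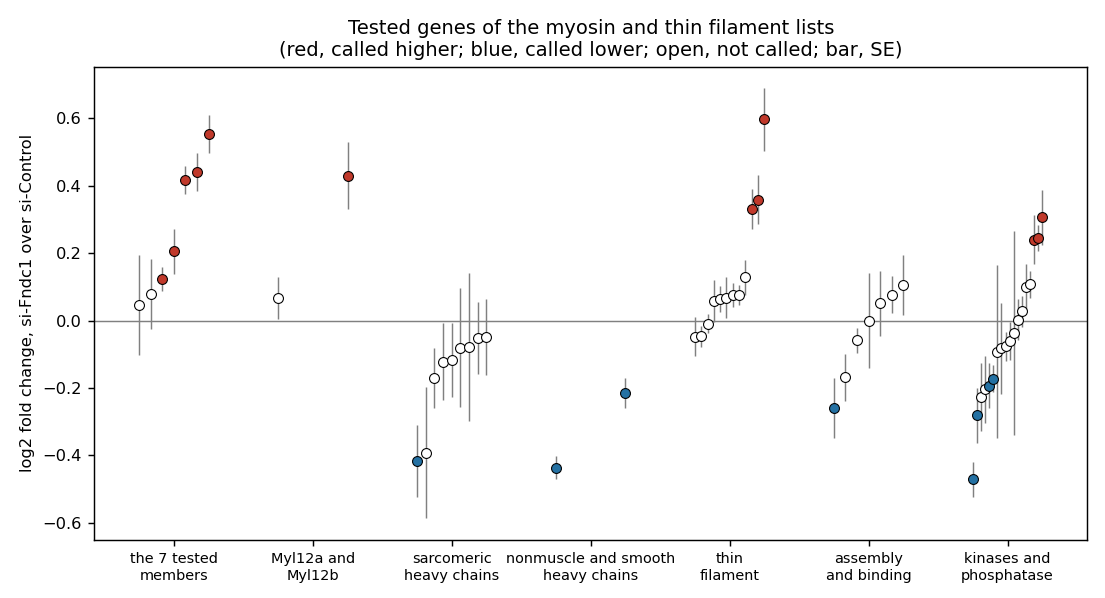
Log2 fold change (points) with its SE (bars) of every tested gene of the light chains and of the lists of their partners, coloured where the adjusted p was under 0.05. The 7 tested light chain genes are above 0 (Myl2 lies below 0 with length and GC content removed), the 9 sarcomeric heavy chains are below 0 with 1 called (median 0.09 with the trend removed), and 3 thin filament genes are called higher.

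Of the myogenic transcription factors, Myod1, which binds E-boxes, rose from 41.9 ± 0.896 to 46.7 ± 2.83 FPKM (log2 fold change 0.16 ± 0.05, adjusted p = 0.0162 by edgeR). Srf, serum response factor, which binds CArG boxes, fell from 17.6 ± 1.56 to 12.5 ± 0.928 FPKM (-0.49 ± 0.07, adjusted p = 0.000524), with -0.19 (adjusted p = 0.053) once length and GC content were removed. Mef2d, a MEF2 factor, had -0.25 (adjusted p = 0.00949), and -0.03 (adjusted p = 0.648) with the trend removed.

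The genes whose pattern over the 10 libraries was most like a light chain's were found among 6924 genes with a mean of at least 5 FPKM, by the SD of the log2 ratio of normalized counts to it. For Mylpf they were Uqcr10 (SD 0.035), mt-Nd1 (0.039), Rpl24 (0.040), Uqcrfs1 (0.041) and Rpl19 (0.041), where the median gene had 0.265. These 5 encode respiratory chain and ribosomal proteins. For Myl4 they were Cdc42 (0.024), Copb2, Vwa5a, Pla1a and Yipf4 (0.030), against a median of 0.160. For Myl1 the nearest 5 lay at 0.061 (Syf2) to 0.069 (Apool), with Acp1, Rxylt1 and Sac3d1 between them. No other member was among any of these 5. Of the members, Myl6 was nearest to Mylpf (0.089, rank 205), and Myl4 was nearest to Myl1 (0.109, rank 311). All libraries share the difference between the groups and the trends above, so this is a description of likeness in level.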

How the data were processed

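RNA was sequenced from 10 libraries of C2C12 cells, 5 per group. The authors deposited a table with raw counts per gene and FPKM values, which they list as 0.0001 where the count is 0. The methods name TopHat, mm10, htseq-count and DESeq2 and speak of 4 libraries, the series text has STAR and mm9, and the submitters' processing notes name GRCm39, cutadapt 1.9 and FastQC.

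Counts were tested here with edgeR 4.0.16 (quasi-likelihood, TMM, R 4.3.3) over the 13548 genes that averaged 0.5 FPKM or more, with Benjamini-Hochberg adjustment over all of them. The SE is the log2 fold change divided by the root of F. FPKM levels were compared by two-sided exact permutation tests (scipy 1.17.1). For length and GC content, a robust (Huber) spline fit with 5 degrees of freedom to the log counts of each library (0.5 added) gave an offset. The alternatives were other filters and size factors, DESeq2 1.42.0, limma 3.58.1 on log2(FPKM + 1), each library left out, a replicate block and the offset. The tests were tried on simulated data. The members and lists were chosen with earlier results of these data known. Named are all 8 members, up to 4 called genes with the smallest p of each other list, and the 5 genes most like Myl1, Myl4 and Mylpf. The marker lists covered myotubes, smooth and cardiac muscle, hepatocytes, fibroblasts, endothelium, macrophages, adipocytes and red cells. Protein sequences were not analysed here. Some results on the other lists are not reported here.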

Additional observations from a re-analysis of the deposited data

Results flagged for a closer look

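Myl9 in si-*Fndc1* replicate 2 stood apart from its group. It had 52.7 FPKM, where the other 4 si-*Fndc1* libraries lay between 74.7 and 81.7, and its gap to the nearest of them took 0.759 of the group's range. Over the 30 groups of 5 values examined (levels of the 8 members and 7 ratios or shares, in each group), chance marks about 1 group in 20. The same library had the lowest Mylpf (2460 FPKM), Myl6 (140.2 FPKM) and Myl4 (162.6 FPKM) of si-*Fndc1* and the highest Myl6b (61.6 FPKM). It also had the highest *Fndc1* of the group (23.5 FPKM).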

How the results depend on the processing

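Myl6 (0.39 to 0.60) and Myl6b (0.38 to 0.53) were called higher under all 23 alternatives, Mylpf under all but 1 and Myl4 under all but 3. The number of light chain genes called higher was 5, and 2 on quantile-normalized values, 3 with the replicate block, and 3 with the block and the length and GC offset together. Quantile normalization gave Mylpf 0.12 (adjusted p = 0.0675), Myl1 0.032 and Myl4 0.006. Myl1 also lost its call without a filter (0.21, adjusted p = 0.0644), on log2(FPKM + 0.1) by limma (0.20, adjusted p = 0.051), with the length and GC offset (0.01), and with the offset that used the length implied by the FPKM (0.055), which was added after seeing the data, as was the count with Mylf-ps. With the replicate block Myl1 had 0.21 (adjusted p = 0.0764) and Myl4 0.12 (adjusted p = 0.0895), and with block and offset together 0.014 and 0.061. No pairing by number was detected: correlations of same-numbered libraries, as deviations from the group means, were -0.06 to 0.06, and 1 of 5 si-*Fndc1* libraries correlated best with its own number. These correlations cannot show that same-numbered libraries were handled apart. Myl2 changed sign with the offset (-0.15), with the offset from the implied length (-0.082), with block and offset (-0.13) and without si-Control replicate 3 (-0.054). With 1 library left out, the log2 fold changes ranged from 0.17 to 0.25 for Myl1, 0.11 to 0.15 for Myl4, 0.40 to 0.44 for Mylpf, 0.04 to 0.17 for Myl9 and -0.05 to 0.13 for Myl2, and 4 to 6 light chain genes were called higher. Over all genes, 2338 were called higher and 2325 lower, against 1147 and 1057 with the offset, 1259 and 1278 with the offset from the implied length, and 742 and 680 with block and offset. On quantile-normalized values 2121 and 2532 were called, and with the replicate block alone 1796 and 1776. With 1 library left out, 2022 to 2321 were called higher and 1978 to 2321 lower. The log2 ratio of Myl4 to Myl1 level in si-Control was -0.86 by FPKM and 0.50 by annotated length, and that of Myl6 to Myl1 was -1.53 and -0.20. The cause of these changes was not tested. Depth limits what can be said of Myl3 and Myl2.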

Other observations

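Among the markers of myotubes, 2 of 7 tested genes were called, both higher in si-*Fndc1*, where 17.3% of all tested genes were. Ckm, the muscle creatine kinase, rose from 66.3 ± 3.29 to 86.2 ± 4.88 FPKM (SD, n = 5; log2 fold change 0.39 ± 0.05, adjusted p = 0.000201 by edgeR), and Mymk, which drives myoblast fusion, from 320 ± 15.6 to 381 ± 42.0 FPKM (0.26 ± 0.07, adjusted p = 0.0188). With length and GC content removed, Ckm had 0.50 (adjusted p = 0.000164) and Mymk 0.24 (adjusted p = 0.0616). Myog stood at 254 ± 10.9 and 233 ± 18.4 FPKM (-0.11 ± 0.06, adjusted p = 0.137).

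Of the smooth muscle list, 1 of 5 tested genes was called higher (Cnn1, 0.26, adjusted p = 0.0415 by edgeR) and 2 lower (Smtn, -0.31, adjusted p = 0.000411, and Lmod1, -0.29, adjusted p = 0.0271). Over all tested genes, 17.3% were called higher and 17.2% lower. Of the fibroblast list, Col1a1 fell from 375 ± 17.6 to 217 ± 9.78 FPKM (-0.78 ± 0.04, adjusted p = 5.57e-06), Col3a1 fell (-0.21, adjusted p = 0.000546) and Dcn rose (0.39, adjusted p = 2.93e-05). With length and GC content removed, of these 6 genes Col1a1 alone passed (-0.45, adjusted p = 3.42e-05). Neither tested gene of the cardiac list passed the test. The endothelial and adipocyte lists had no tested gene, and the macrophage and red cell lists had 1 each, which did not pass. Below the level filter, the red cell gene Hbb-bs had 0.00317 ± 0.00686 FPKM in si-Control and 0.33 ± 0.263 in si-*Fndc1*. Hbb-bt and Hba-a2, also below it, had higher means in si-*Fndc1* too, and none of these was tested. Cdh5, Ptprc, Adgre1, Adipoq and Plin1 had no read in any library.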
